A study of Homo sapiens with 45 samples.

Results

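MDA-MB-231, a human triple-negative breast cancer line established from a pleural effusion, was compared with the other basal B lines of a panel of breast cancer lines. Its 3 libraries were set against the mean of BT-549, HCC1395, HCC38, Hs578T, MDA-MB-157 and MDA-MB-436, which had 3 libraries each, so that 21 of the 45 libraries of the panel entered the comparison. The lines were chosen by name and not by values, and the basal B class is a classification from outside the sample labels. Lines, gene lists and rules were nevertheless set with earlier results of these data known. The counts and medians of the lists are therefore descriptions and not independent evidence. The labels give every line as wild-type, untreated and of epithelial cell type. MDA-MB-231, MDA-MB-157 and MDA-MB-436 were grown in L-15, MDA-MB-436 with added insulin and glutathione. BT-549, HCC1395 and HCC38 were grown in RPMI 1640, BT-549 with added insulin, and Hs578T in DMEM. Each line is 1 established culture from 1 tumour, and whether the 3 libraries of a line were grown separately is not in the labels, so that p-values measure the spread between these libraries, which may be technical.

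Basal B lines are triple-negative lines with a mesenchymal character, in which cell-cell adhesion genes of epithelium are low and matrix and motility genes are high. MDA-MB-231 is the member most used in studies of invasion and metastasis, and is generally described as carrying an activating mutation of BRAF and losses of NF2 and CDKN2A. BRAF feeds the MAPK cascade, NF2 is a brake on YAP and TAZ, the coactivators of the TEAD transcription factors, and CDKN2A encodes inhibitors of the cell cycle. L-15 is a medium for cells in air that replaces glucose with galactose and pyruvate.

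The 3 MDA-MB-231 libraries held 4949251, 6070035 and 4515567 counts, and the 18 others held 2312138 to 10206100 counts with a median of 6196965. Hs578T replicate 2 stood apart, with the lowest total, the most genes detected (40272) and the highest share of mitochondrial counts (0.782%). Sequencing runs 1 and 2 held MDA-MB-231, HCC38 and Hs578T, while BT-549, HCC1395, MDA-MB-157 and MDA-MB-436 came in runs 3 to 5. No other basal B line shared both the runs and the medium of MDA-MB-231, so 2 narrower contrasts are given beside the main one: against the mean of HCC38 and Hs578T, which shared the runs, and against the mean of MDA-MB-157 and MDA-MB-436, which shared the medium. All 3 contrasts use the same MDA-MB-231 libraries. The epithelial markers fixed for the labelled cell type summed to 1775 to 2691 CPM in MDA-MB-231 and to 120 to 6503 CPM in the others. CPM is the count relative to the TMM-scaled library total, except that marker sums and values on summed libraries use the raw total. CDH1 of MDA-MB-231, the adhesion molecule that defines epithelium, was near 0 at 1.07 ± 0.435 CPM (SD, n = 3). Markers of endothelium summed to 37.9 to 52.0 CPM and those of blood cells to 6.47 to 9.74 CPM.

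Of 20587 genes tested, 2489 (12.1%) were higher and 2054 (9.98%) lower in MDA-MB-231, where a call took an adjusted p under 0.05 by edgeR's quasi-likelihood test and a log2 fold change of 1 or more in size. Without Hs578T replicate 2, the counts were 2744 higher and 2017 lower. All 3 MDA-MB-231 libraries lay above all 18 others for 808 genes (3.92%) and below them for 523 genes (2.54%). Without that Hs578T library the counts were 914 and 712. Within the shared runs, 2286 genes (11.1%) were higher and 2436 (11.8%) lower. Within the shared medium, 2614 (12.7%) were higher and 2744 (13.3%) lower.

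Against single lines, 2059 genes were higher (10%) and 2540 lower (12.3%) than in Hs578T, the fewest of the 6 comparisons. Against HCC1395 the counts were the most, with 4614 higher (22.4%) and 3705 lower (18%). BT-549 gave 2994 (14.5%) and 3085 (15%), MDA-MB-436 gave 2955 (14.4%) and 3024 (14.7%), MDA-MB-157 gave 3065 (14.9%) and 3584 (17.4%), and HCC38 gave 3343 (16.2%) and 3526 (17.1%). When each basal B line was set against the mean of the other 6 in the same fit, MDA-MB-231 had 4543 called genes (22.1%), BT-549 had 4714, MDA-MB-436 5126 and Hs578T 5052. The counts for MDA-MB-157, HCC38 and HCC1395 were 6162, 6169 and 7149. These contrasts share libraries and the differences between their counts were not tested.

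These tests weigh the mean of the lines against the spread within lines. With 1 sum of counts per line as the unit, so that the spread between the 6 other lines is the error, 8 genes were higher and 3 lower at an edgeR adjusted p under 0.05, and 346 and 274 had an unadjusted p under 0.05. Those 346 and 274 together are a share below 0.05 of the 20587 genes tested, so they are no more than such a threshold passes where nothing differs. The 11 called genes are outside the rule for named genes where not listed below, and were named after their values were seen. They were TFF1, C19orf33, IL1RAPL1, KISS1, ESAM and the neighbouring cystatin genes CST1, CST2 and CST4 among the higher, and HIST1H1D, HIST1H2AE and CNTLN among the lower. For the other genes below, a call says that MDA-MB-231 differs from the mean of these 6 lines, and not that it differs by more than lines differ among themselves.

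The genes named next stood farthest above or below every other line. Further on, members of gene lists beyond the most changed of each list were named after their values were seen. Among the higher genes, ANKRD1 and F3 had the highest levels. ANKRD1, a nuclear and sarcomeric ankyrin-repeat protein widely used as a readout of YAP activity, had 2292, 2778 and 3317 CPM in the 3 MDA-MB-231 libraries. In the 18 others it ranged from 0.225 to 148 CPM with a median of 6.47, the highest mean being that of Hs578T. The fitted difference was 8.75 ± 0.23 (SE) on the log2 scale, with an edgeR adjusted p of 1.39e-32. F3, the tissue factor that starts blood coagulation, had 2512, 2356 and 2015 CPM against 0.337 to 311 CPM in the others (median 36.9), and the difference was 6.55 ± 0.11 (edgeR adjusted p = 2.05e-39). Neither gene's groups overlapped. ANKRD1 lies on chromosome 10 (GRCh38, 90912096 to 90921276) and F3 on chromosome 1 (94529225 to 94541800).

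Promoters of 3 of the 12 highest-ranked genes are shown because they hold the motifs searched for, the hexamer CATTCC (or GGAATG on the other strand) bound by TEAD factors, and TGACTCA (or TGAGTCA) bound by AP-1. The sequences are RefSeq's, build GRCh38.p14, run 5′ to 3′ along the gene from 250 bases before its start to 50 after, and have the motifs in capitals. That of ANKRD1 is chr10:90921038-90921337 on the minus strand, that of MAMDC2 chr9:70043331-70043630 on the plus strand and that of F3 chr1:94541710-94542009 on the minus strand.
ANKRD1: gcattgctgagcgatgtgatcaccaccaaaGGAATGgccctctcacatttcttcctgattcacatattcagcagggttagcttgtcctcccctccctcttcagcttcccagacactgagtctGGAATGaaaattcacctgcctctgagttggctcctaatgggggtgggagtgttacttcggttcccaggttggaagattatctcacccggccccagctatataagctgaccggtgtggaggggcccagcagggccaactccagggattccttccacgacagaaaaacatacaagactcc
MAMDC2: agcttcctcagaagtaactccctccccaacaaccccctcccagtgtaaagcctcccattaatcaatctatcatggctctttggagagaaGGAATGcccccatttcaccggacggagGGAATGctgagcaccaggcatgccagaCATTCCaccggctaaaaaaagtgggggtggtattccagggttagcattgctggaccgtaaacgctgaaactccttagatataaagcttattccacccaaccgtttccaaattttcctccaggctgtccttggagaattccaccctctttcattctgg
F3: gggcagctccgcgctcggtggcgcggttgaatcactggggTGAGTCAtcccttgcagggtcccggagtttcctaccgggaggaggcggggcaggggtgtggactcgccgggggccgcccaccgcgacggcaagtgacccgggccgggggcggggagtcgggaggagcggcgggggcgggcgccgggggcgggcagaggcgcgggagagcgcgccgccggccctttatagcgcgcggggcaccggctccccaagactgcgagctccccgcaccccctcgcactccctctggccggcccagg
The hexamer started at -220 and -128 from the start of ANKRD1 and at -161, -134 and -107 from that of MAMDC2, and the AP-1 motif at -210 from that of F3. Of the 12 genes, 9 had an entry in the promoter table, and CST4 and GNA15 were among those without one. The hexamer was in 4 of the 9 (ANKRD1, ACSL5, PRSS3 and MAMDC2) and in 14.0% of all 27305 promoters of the table. The AP-1 motif was in 1 of the 9, against 4.92% of all promoters. Counts of letters in a window describe sequence and are not sites of binding.

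The other genes named from this group ranged from a mean of 29.8 CPM (CST4) to 219 CPM (ADGRF5, an adhesion G protein-coupled receptor of lung and endothelium). ACSL5, an enzyme that activates long-chain fatty acids, had 125, 159 and 172 CPM against 0 to 9.29 CPM in the others. CD74, the invariant chain that accompanies class II HLA molecules, had 36.1, 26.005 and 38.1 CPM against 0 to 2.10 CPM. IL1RAPL1, a synaptic adhesion protein of the interleukin 1 receptor family, had 70.4, 72.3 and 89.3 CPM against 0.263 to 3.30 CPM. CST4, a salivary cystatin, had 35.1, 24.9 and 29.5 CPM against 0 to 0.600 CPM, and since CST1, CST2 and CST4 are close in sequence, the share of each depends on how reads common to them were counted. The remaining members were PRSS3 (a trypsinogen), MAMDC2, GNA15 (a G protein alpha subunit) and ADAM8 (a membrane metalloprotease), with differences of 5.48 to 7.42 on the log2 scale. In all 11 genes named here the MDA-MB-231 libraries lay above every other library, and all 11 were called in both narrower contrasts. They were picked as called genes with the widest gap above the highest other line. Both results were therefore close to fixed in advance and are no further evidence. The long noncoding genes SFTA1P (92.5 ± 17.7 CPM, SD, n = 3), LINC00973 (63.6 ± 21.3) and AC089983.1 (49.8 ± 14.4), picked by the same gap, likewise did not overlap with any other line. In the other direction, LINC00346 (1.34 ± 0.248 CPM against a mean of 22.7), MSC-AS1 (1.28 ± 0.755 against 20.3) and TUG1 (35.3 ± 1.93 against 94.9) were lower. TUG1 was not called within the shared runs (-0.66) or without MDA-MB-157.

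**Figure D1:**
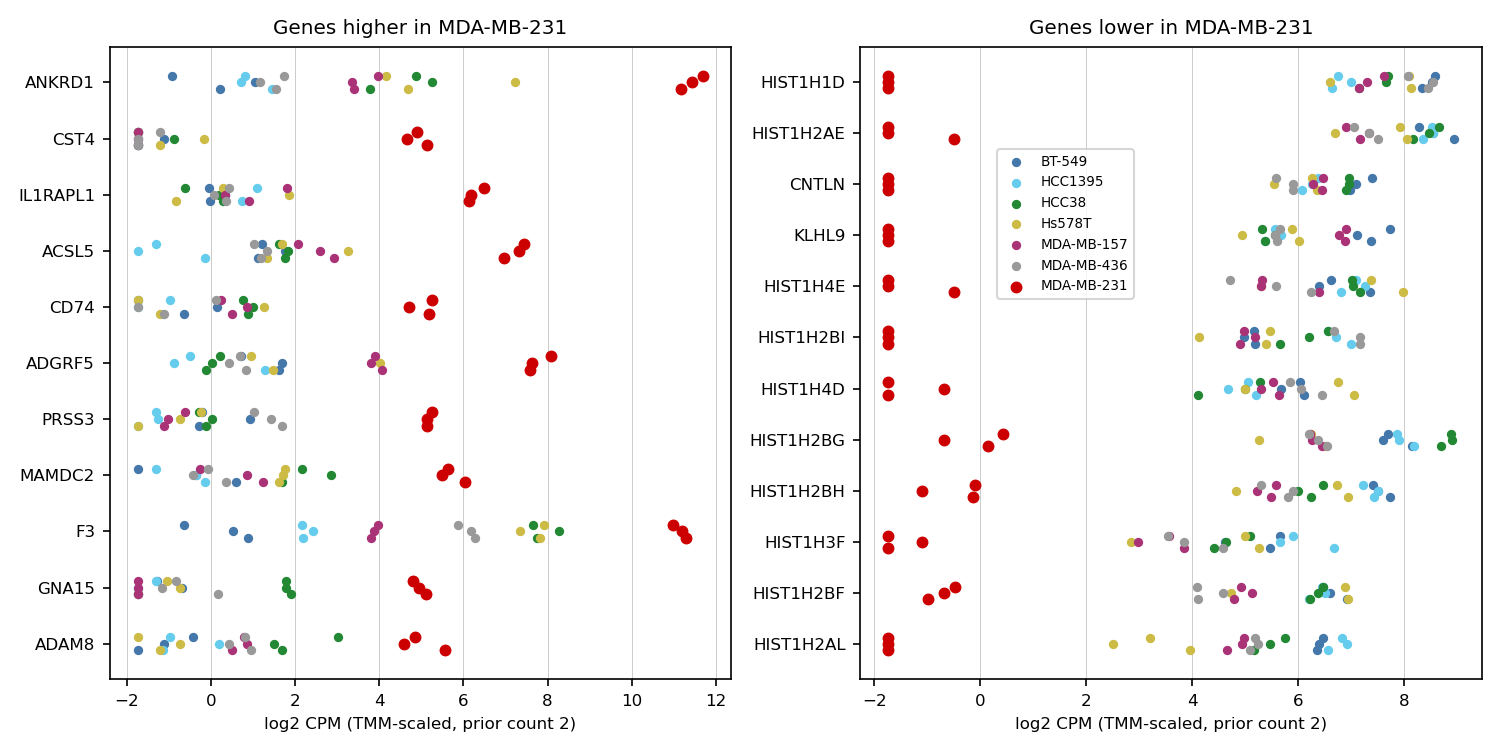
Log2 CPM (TMM-scaled, prior count 2) of 11 of the genes farthest above and of the 12 farthest below the other basal B lines, with 1 point per library and 1 colour per line. The MDA-MB-231 points (red) lie apart from all others in every row, and for HIST1H1D, CNTLN, KLHL9, HIST1H2BI and HIST1H2AL they sit at the value of 0 counts. The genes were picked for their gap to the nearest other line.

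Of the 12 genes farthest below the other lines, 10 were replication-dependent histone genes of the HIST1 cluster on chromosome 6, and the other 2, CNTLN and KLHL9, lie on the short arm of chromosome 9. HIST1H1D, a linker histone (chromosome 6, 26234268 to 26234933), had 0 counts in all 3 MDA-MB-231 libraries. It had 96.2 to 380 CPM in the other 18. On summed libraries, with a floor of 3 counts over MDA-MB-231, it was at least 1122-fold lower than the median of the 6 lines. HIST1H2BI and HIST1H2AL were also at 0 counts and at least 267-fold and 205-fold lower by the same floor. HIST1H2AE, an H2A histone, had 2 counts and a ratio of 2096-fold, with an exact 95% Poisson interval of 580 to 17305. HIST1H3F had 1 count and a ratio of 414-fold (74.4 to 16369). These intervals and floors cover counting error only.

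Along the cluster, most genes with the fewest counts lay in 2 stretches, which do not hold all of the genes called lower. The first ran from HIST1H4D (26188765) to HIST1H2BI (26273356), where every gene had 0 to 11 counts in MDA-MB-231. Its neighbours HIST1H2BE (156 counts) and HIST1H4H (600 counts) were read on either side. The second ran from HIST1H2AL (27865355) to HIST1H4L (27873510) and held HIST1H1B, another linker histone, with 5 counts against a median of 273 CPM in the other lines. The second stretch was not low in MDA-MB-231 alone: Hs578T had 6 counts of HIST1H1B, 2 of HIST1H3I and 8 of HIST1H4L, and HCC1395 had 4 of HIST1H3I and 9 of HIST1H4L. In the first, HIST1H3E, HIST1H4F and HIST1H3G were also low in at least 1 other line. Outside both, HIST1H1A had 4 counts in MDA-MB-231 and 5 in HCC1395, against a median of 21.5 CPM, and HIST1H2BM had 11 in MDA-MB-231 and 7 in Hs578T. The plot of the cluster in chromosome order shows both stretches. Of the 54 HIST1 genes tested, 27 were lower and 2 higher, and their median difference of -1.47 (-1.24 with genes at 0 counts at their floor) compares with 0.03 over all genes tested. HIST1H1C, a linker histone outside both stretches, had 11265 counts in MDA-MB-231. HCC1143, a basal A line of the panel, was near 0 in only part of the first stretch, with 3 counts for HIST1H1D and 0 for HIST1H3F, HIST1H2BH and HIST1H2BI, but 5760 for HIST1H2AE and 2499 for HIST1H4E. Histone genes of a kind are close copies, so counts of single members depend on how shared reads were assigned.

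**Figure D2:**
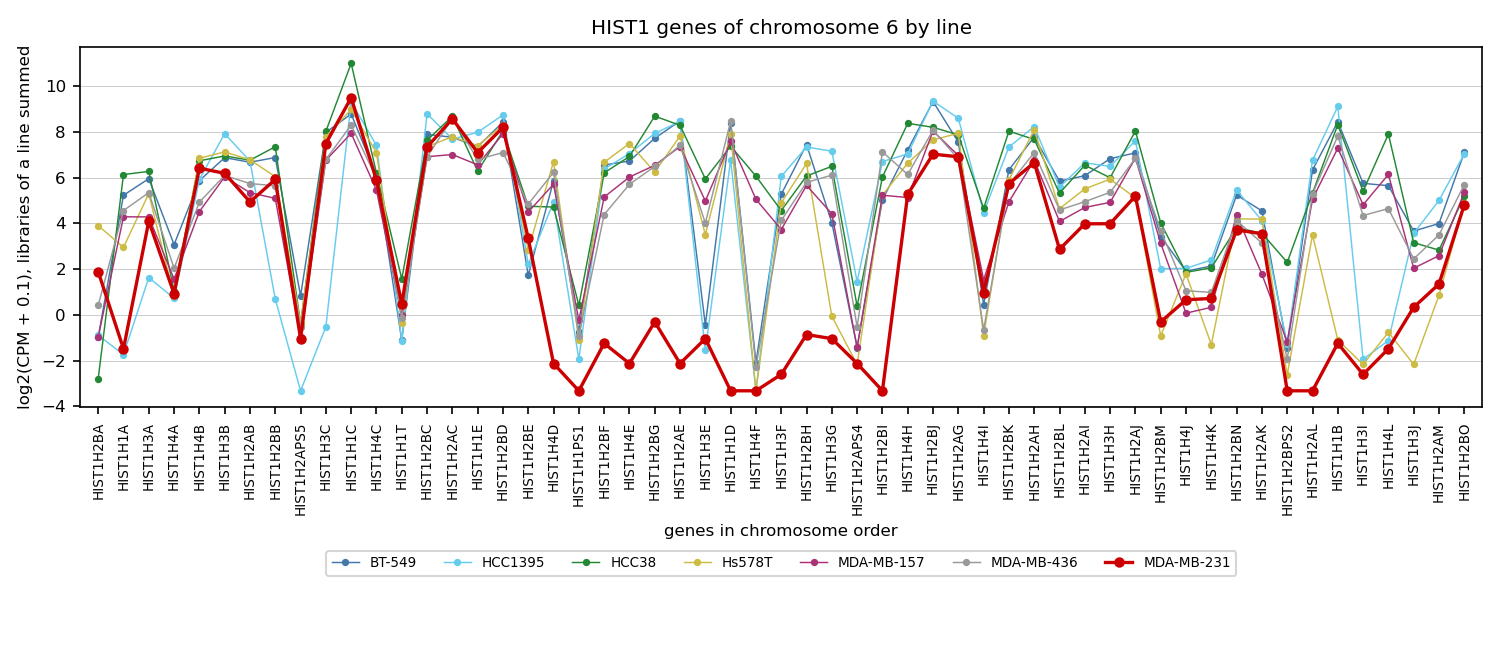
HIST1 genes with at least 60 counts over the 6 other basal B lines, in chromosome order, as log2(CPM + 0.1) of the 3 summed libraries of each line (no TMM scaling, no error bars). MDA-MB-231 (red) is low from HIST1H4D to HIST1H2BI and again from HIST1H2AL to HIST1H4L, and lies among the other lines at HIST1H1C, HIST1H2BC and HIST1H2BD.

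On chromosome 9, CNTLN, a centriolar linker protein (17134982 to 17503923), had 0 counts in MDA-MB-231 and 46.5 to 169 CPM in the other libraries, at least 449-fold lower by the floor. Its neighbour SH3GL2 was also at 0 counts. The 8 coding genes before CNTLN in the plotted set, from NFIB to BNC2, were read but each lay below the lowest of the 6 other lines on summed libraries. PSIP1, a chromatin-binding protein, was at 44.4 CPM against 136 to 486 CPM, and BNC2, a zinc finger protein, at 1.54 CPM against 4.73 to 84.6 CPM. The genes that follow SH3GL2 were read, from ADAMTSL1 (394 counts) through RPS6 (22318 counts) and MLLT3 (733 counts). FOCAD, a focal adhesion protein gene next in order, was reduced, with 13.1, 12.5 and 12.6 CPM against 32.9 to 91.7 CPM. From HACD4 (start 20999515) to ELAVL2 (end 23826337), all 8 protein-coding genes of the plotted set had at most 1 count. They include KLHL9, a ubiquitin ligase adaptor, at 0 counts and at least 281-fold lower. MTAP, the methionine salvage enzyme, had 1 count against 8.53 to 267 CPM in the others, a ratio of 1510-fold (271 to 59648).

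CDKN2A and CDKN2B, the inhibitors of CDK4 and CDK6 between MTAP and DMRTA1, had 0 counts in MDA-MB-231 and were at least 134-fold and 215-fold lower than the median of the 6 lines. HCC38 also had 0 counts of both, so that the fitted contrast gives no usable error for them and neither was called. In Hs578T, CDKN2A was at 1.78 CPM over summed libraries, and in BT-549 at 157 CPM. HCC38 differed from MDA-MB-231 in extent. It kept KLHL9 (39.0 CPM) and MTAP (8.17 CPM), and was at or near 0 from CDKN2A to LINGO2, including CAAP1 (0.177 CPM), PLAA and IFT74, which MDA-MB-231 had at 76.8, 86.6 and 39.4 CPM. Of 17 tested genes of the 9p21 list, 5 were lower and 5 higher, and the 5 higher include CAAP1, IFT74 and PLAA. Within the shared medium, where HCC38 has no part, 12 were lower and 1 higher. DNA was not measured, and the counts do not tell a lost gene from a silent one.

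**Figure D3:**
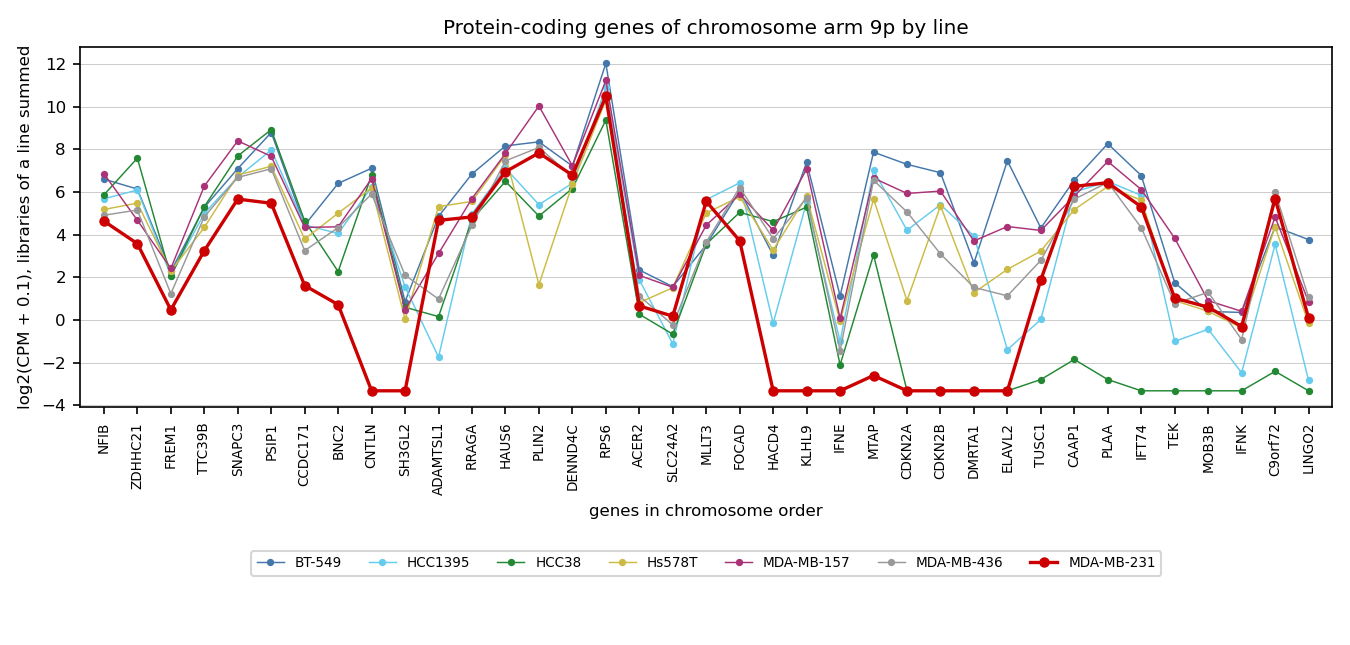
Protein-coding genes of chromosome arm 9p in order, as log2(CPM + 0.1) of the 3 summed libraries of each basal B line (no error bars). MDA-MB-231 (red) is below all other lines from NFIB to BNC2, at the bottom for CNTLN and SH3GL2 and from HACD4 to ELAVL2, while HCC38 (green) is at the bottom from CDKN2A to LINGO2.

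By a rule chosen after these values were seen, at most 3 counts in MDA-MB-231 and a median of at least 5 CPM in the 6 other lines, 38 genes of 10544 (0.36%) were silent in MDA-MB-231. Of these, 8 were on chromosome 9 and 8 were HIST1H genes, and 10 had 0 counts. The same rule found 10 silent genes in MDA-MB-436, 42 in HCC1395 and 15 to 21 in the other 4 lines. The limit of 3 counts was not scaled to line totals, which ran from 14692305 (MDA-MB-157) to 25047986 (HCC1395). Others in the set of 38 were UCHL1, a neuronal deubiquitinase, with 3 counts against a median of 189 CPM and a lowest line of 0.367 CPM. FOXD1, a mesenchymal transcription factor, had 3 counts against 36.5 CPM (lowest line 1.10). ANPEP, the aminopeptidase CD13, had 2 counts against 31.4 CPM (lowest line 3.03). SMO, the transducer of hedgehog signals, had 1 count against 13.2 CPM (lowest line 1.85).

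The HOX genes, which record position along the body axis, were low as a family. Of 32 tested, 22 were lower and 2 higher, and their median difference was -2.89 (-2.74 with genes at 0 counts at their floor). By cluster, 8 of 10 HOXA genes, 6 of 8 HOXB genes, 7 of 8 HOXC genes and 1 of 6 HOXD genes were lower. HOXA10 had 0.202, 0.163 and 0.629 CPM against 3.72 to 22.5 CPM in the others, and was lower in every library (-4.72 ± 0.36, edgeR adjusted p = 1.57e-15). HOXC9 had 1.01, 0.163 and 1.47 CPM against 3.87 to 32.5 CPM. HOXC6, HOXA5 and HOXC4 also lay below all 18 libraries. The higher pair, HOXB9 (5.00 ± 1.26 CPM, SD, n = 3) and HOXD4 (0.424 ± 0.224), overlapped with other lines. HOXB9 was not called within the shared runs (0.45) nor HOXD4 within the shared medium (-0.24). Within the shared runs 19 were lower and 1 higher, and within the shared medium 20 and 1, but within the medium the members changed. HOXB2 (0.14), HOXB3 (-0.41), HOXB4 (0.003), HOXB6 (-1.09), HOXA9, HOXC8 and HOXC12 were not called there. HOXA13, HOXC13, HOXD10, HOXD11 and HOXD13 were called lower there and not in the main contrast. HOXB2 was at 0.310 CPM in MDA-MB-231, 0.243 CPM in MDA-MB-157 and 0.341 CPM in MDA-MB-436. HOX genes overlap antisense transcripts, and the strand setting of the counting is not given in the sources used here.

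**Figure D4:**
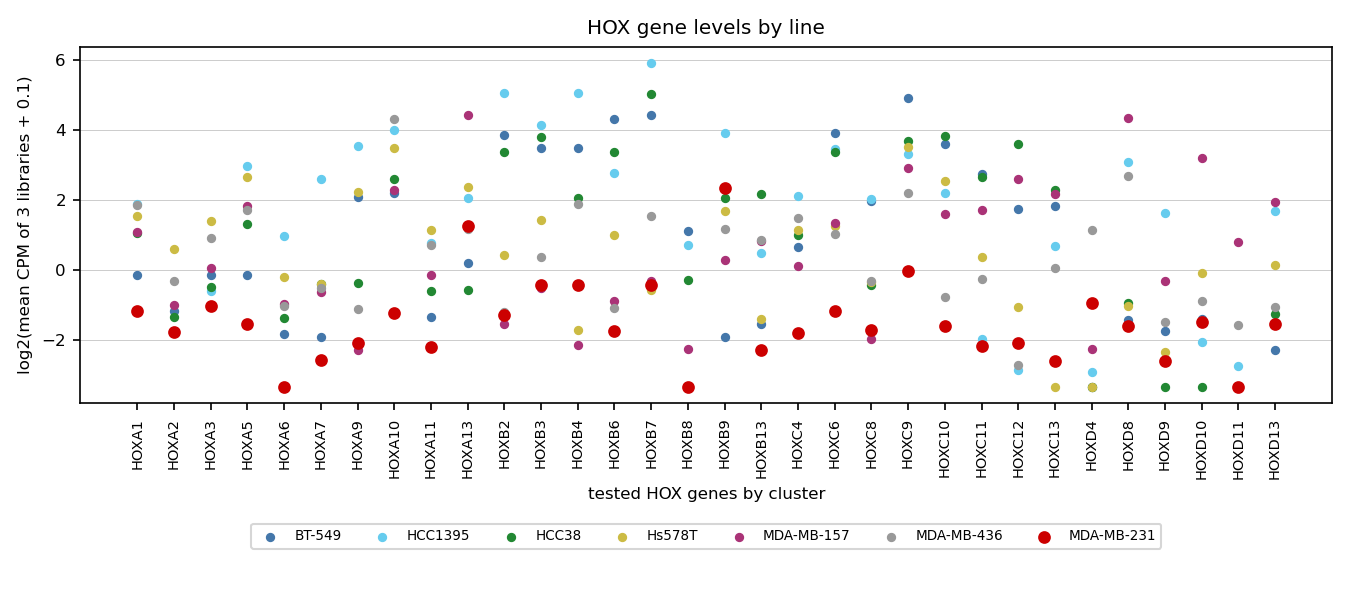
Tested HOX genes by cluster, as log2(mean CPM of 3 libraries + 0.1), with 1 point per line. MDA-MB-231 (red) is below all other lines for HOXA10, HOXC6 and HOXC9, and within their range for HOXB9 and HOXA13.

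Of 18 tested genes that are outputs of the MAPK cascade, 6 were higher and 0 lower, with a median of 0.81. That is 33.3% called, against 22.1% over all genes tested. The 6 were the phosphatase genes DUSP4, DUSP5 and DUSP6, the Sprouty genes SPRY1 and SPRY2, which encode feedback inhibitors, and CCND1. DUSP4 and DUSP6 dephosphorylate ERK, and DUSP6 had 237, 230.6 and 280 CPM against 1.64 to 135 CPM in the others (3.49 ± 0.15, edgeR adjusted p = 1.66e-24). DUSP4 had 329, 250 and 291 CPM against 0.304 to 233 CPM, with the upper end in BT-549. DUSP5 and SPRY2 also lay above all 18 libraries. CCND1, which encodes cyclin D1, was called (1.26 ± 0.11) but overlapped, with HCC38 at the highest mean, and was not called within the shared runs (-0.71). EGR1 (-0.94), ETV5 (-0.57) and SPRED2 (-0.25) were not called. The lines of the same runs gave 9 members higher and 2 lower, and those of the same medium 8 and 0.

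In the cascade itself, 2 of 17 tested genes were higher and 2 lower (23.5% called, against 22.1% over all genes tested). BRAF did not pass the test (40.0 ± 4.24 CPM against a mean of 49.1, edgeR adjusted p = 0.067). RASGRP3, a RAS activator, had 11.3, 17.9 and 34.6 CPM against 0.722 to 15.3 CPM in the others, and was higher by 2.68 on the log2 scale with overlap.

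Targets of YAP and TEAD were mostly higher or not called. Of 23 tested, 13 were higher and 0 lower (56.5% called, against 22.1% over all genes tested), with a median of 1.22. Within the shared runs 11 were higher and 1 lower, and within the shared medium 14 and 0. This list holds ANKRD1 and F3. TGFB2, a TGF-beta ligand, had 412, 327 and 224 CPM against 5.98 to 202 CPM, and AJUBA, a LIM protein of cell junctions, 299, 215 and 172 CPM against 34.4 to 167 CPM. CYR61 and CTGF, the matricellular targets most often measured for this pathway, were higher by 1.62 ± 0.13 and 1.37 ± 0.20 on the log2 scale, and both overlapped with other lines. Neither was called within the shared runs (0.80 and 0.76), and within the shared medium they were called at 2.09 and 2.31. AMOTL2 (-0.04), NUAK2 (0.06) and TNS3 (0.19) were not called. Of the 13 higher genes 8 had a promoter entry, and the TEAD hexamer was in 3 of them.

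Of 20 Hippo pathway genes, 3 were higher and 4 lower (35% called, against 22.1% over all genes tested). NF2 had 9.08, 14.0 and 12.2 CPM, against 114 to 295 CPM as the means of 5 of the other lines and 0.748 CPM in MDA-MB-436. The main difference was -2.50 ± 0.18 (edgeR adjusted p = 3.25e-16). Within the shared medium, which pairs it with MDA-MB-436, it was 0.08 and not called. FRMD6, a FERM-domain protein placed upstream of the pathway, had 1212, 1112 and 1127 CPM against 152 to 570 CPM. WWTR1, which encodes TAZ, was called lower (-1.33 ± 0.19), as was TEAD4 (-1.08 ± 0.19), while TEAD3 was higher (1.53 ± 0.14). Within the shared medium WWTR1 (-0.01) and TEAD4 (-0.80) were not called, nor was TEAD4 within the shared runs (-0.64).

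Inflammatory mediators split. Of 24 cytokine genes tested, 12 were higher and 5 lower. The median was 1.20, but within the shared medium 5 were higher and 7 lower. IL18 had 37.5, 38.5 and 45.3 CPM against 0.182 to 17.1 CPM, and was the member of this list that did not overlap with any other library. CSF2, which encodes GM-CSF, had 4.84, 18.7 and 41.9 CPM against 0 to 10.3 CPM, and IL24 had 2.42, 6.83 and 18.02 CPM against 0 to 11.0 CPM. Both spread widely among the MDA-MB-231 libraries. IL11, a metastasis-associated cytokine of bone, had 52.2, 52.2 and 72.3 CPM against 0 to 149 CPM, with MDA-MB-157 highest. The chemokines CXCL5 (-3.41 ± 0.67) and CCL2 (-2.89 ± 0.87) were lower. MDA-MB-436 had up to 818 CPM of IL1B, against 8.67 ± 4.22 in MDA-MB-231. The main contrast of IL1B was nevertheless positive (2.03), since it averages the lines on the log scale, and within the shared medium IL1B was lower (-1.22).

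NF-kB pathway genes were higher in 8 and lower in 0 of 23 tested, with a median of 0.43. That is 34.8% called, against 22.1% over all genes tested. NFKBIE, an inhibitor of NF-kB that is also its target, had 58.1, 47.8 and 62.0 CPM against 3.81 to 27.2 CPM (2.32 ± 0.13). BIRC3 had 198, 303 and 505 CPM against 3.996 to 743 CPM, with HCC1395 highest. The subunit genes RELA (0.43), NFKB1 (0.26) and NFKB2 (0.33) were not called. In the run-matched contrast 9 were higher and 0 lower, and in the medium-matched one 7 and 1.

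A list of genes linked to metastasis in sublines of MDA-MB-231 was compiled from work on this line, so its direction here is not independent evidence. Of 28 tested, 13 were higher and 8 lower. MMP1, the interstitial collagenase, had 817, 2086 and 8236 CPM, against means of 1.22 to 24.1 CPM in 5 lines and 1212 CPM in MDA-MB-436. The difference was 8.21 ± 0.28 (edgeR adjusted p = 3.14e-28), and the ranges overlapped because the lowest MDA-MB-231 library was below the highest of MDA-MB-436 (1337 CPM). CXCR4, the chemokine receptor, had 20.2, 14.6 and 23.0 CPM against 0.131 to 2.09 CPM. SPARC, a matrix glycoprotein, was at 1.29 ± 0.298 CPM, with HCC1395 and MDA-MB-436 as low (means of 0.788 and 1.80 CPM) and MDA-MB-157 at 3952 CPM. MMP2 had 0.403, 0 and 0.210 CPM, below all other libraries (1.20 to 27.2 CPM).

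Of 29 extracellular proteases and inhibitors tested, 13 were higher and 6 lower. PLAT, the tissue plasminogen activator, had 725, 567 and 556 CPM against 1.24 to 185 CPM, a difference of 6.01 ± 0.13 (edgeR adjusted p = 2.9e-35). TIMP3, an inhibitor of metalloproteases, was called higher (4.34 ± 0.22) although the mean of the 6 lines was above that of MDA-MB-231 (92.4 against 83.4 CPM), because Hs578T alone held 513 CPM. Within the shared runs, which include Hs578T, its difference was -0.72 and not called.

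The epithelial markers showed a mixed pattern. Of 29 tested, 12 were higher and 7 lower, and within the shared runs the counts were 7 and 12. For all 19 called members HCC38 was the highest of the other lines. KRT19, a simple keratin, had 640, 495 and 496 CPM, between HCC38 (a mean of 1126 CPM) and the other 5 lines (means of 0.889 to 3.87 CPM). CLDN4 (tight junctions) and SPINT2 (a serine protease inhibitor) had the same order, with MDA-MB-231 below HCC38 and above the other 5. EPCAM was called higher (1.65 ± 0.18), at 21.8, 17.4 and 15.1 CPM, and was lower than HCC38 and Hs578T together (-1.13). Without BT-549 it was not called (0.92). CDH1 was called lower (-1.20 ± 0.34, edgeR adjusted p = 0.00298), a call that rested on HCC38 at 266 CPM. Without HCC38 it was 0.15, and without the first MDA-MB-231 library it was not called. OVOL2, a transcription factor that keeps cells epithelial, had 0 counts and was at least 1.54-fold lower than the median of the lines.

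Mesenchymal genes moved in both directions. Of 24 tested, 7 were higher and 6 lower. Within the shared runs 5 were higher and 8 lower, and within the shared medium 6 and 9. TWIST1 had 0.202, 0.813 and 0.419 CPM against 0.620 to 73.4 CPM, and HCC38 was the other line with little of it (0.897 CPM). TWIST2 and CDH2, which encodes N-cadherin, lay below all other libraries, CDH2 at 4.84, 2.76 and 6.91 CPM against 22.8 to 587 CPM (-4.28 ± 0.25). S100A4 lay above them at 117, 34.8 and 30.6 CPM against 1.23 to 16.3 CPM, and CDH11 was higher (2.99 ± 0.19) with overlap. VIM (1561 ± 58.3 CPM against a mean of 2397, edgeR adjusted p = 0.172) and ZEB1 (0.95 ± 0.13, under the fold threshold) were not called.

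Of 46 matrix genes, 12 were higher and 12 lower. Within the shared runs 5 were higher and 21 lower, and within the shared medium 9 and 16. The higher ones that overlapped with no other library were LOXL4, COL8A1, LAMB3 and COL13A1. LAMB3, a chain of laminin 332, had 487, 397 and 582 CPM against 0.687 to 211 CPM. The lower ones included the fibrillar collagen chains COL5A2 (-3.93 ± 0.29), COL3A1 (-3.40 ± 0.44) and the proteoglycan VCAN (-2.82 ± 0.25), and none of the 12 lay below all 18 libraries. Of 10 fibroblast markers 7 were lower and 2 higher. Their sum was 31.96 to 48.7 CPM in MDA-MB-231 and 5.25 to 15951 CPM in the others, with Hs578T highest for most. The part of this in the matrix values was not tested. In bulk RNA, fewer cells of a kind and less RNA per cell cannot be told apart.

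Integrins were higher in 7 and lower in 3 of 20. Within the shared runs 4 were higher and 6 lower, and within the shared medium 10 and 5. ITGA4, the alpha chain of VLA-4, had 2.22, 2.93 and 3.35 CPM against 26.8 to 263 CPM (-4.83 ± 0.26, edgeR adjusted p = 7.25e-21). ITGB2, the beta chain of leukocyte integrins, lay above all others at 16.7, 15.0 and 17.4 CPM against 0 to 5.52 CPM. Of 10 endothelial markers 5 were higher and 0 lower. ESAM, a junctional adhesion molecule, had 10.1, 10.2 and 10.3 CPM against 0 to 0.761 CPM, while the defining markers VWF (1.26 CPM) and CDH5 (0.385 CPM) were not called. PTPRC, which defines leukocytes, had 2.28 ± 0.865 CPM and was not called.

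Receptor kinases and growth factors were higher in 20 and lower in 7 of 44 tested. AREG, an EGF receptor ligand, had 337, 211 and 181 CPM, with HCC38 as the other line that reached this level (highest library 255 CPM). TGFA, another ligand, was higher by 3.63 ± 0.14 on the log2 scale. FGF2 had 1.01, 1.63 and 2.93 CPM against 37.9 to 579 CPM (-6.29 ± 0.27, edgeR adjusted p = 2.5e-24). DDR2, a collagen receptor kinase, was lower (-3.37 ± 0.23). Of 29 TGF-beta and BMP genes 7 were higher and 7 lower, among them SMURF2 (2.12 ± 0.09), TGFB2 and FST (2.17 ± 0.17) above all 18 libraries and ENG below them. Of 17 luminal markers 8 were higher and 1 lower. TFF1, an oestrogen-responsive secreted peptide, had 5.04, 9.75 and 10.7 CPM against 0 to 0.300 CPM, and SPDEF 9.28, 1.95 and 4.40 CPM against 0 to 0.899 CPM. Of 19 basal keratinocyte markers 8 were higher and 5 lower, with KRT14 at 0 counts and not called within the shared medium or without Hs578T. Within the shared runs 4 of these markers were higher and 8 lower, and within the shared medium 9 and 3.

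**Figure D5:**
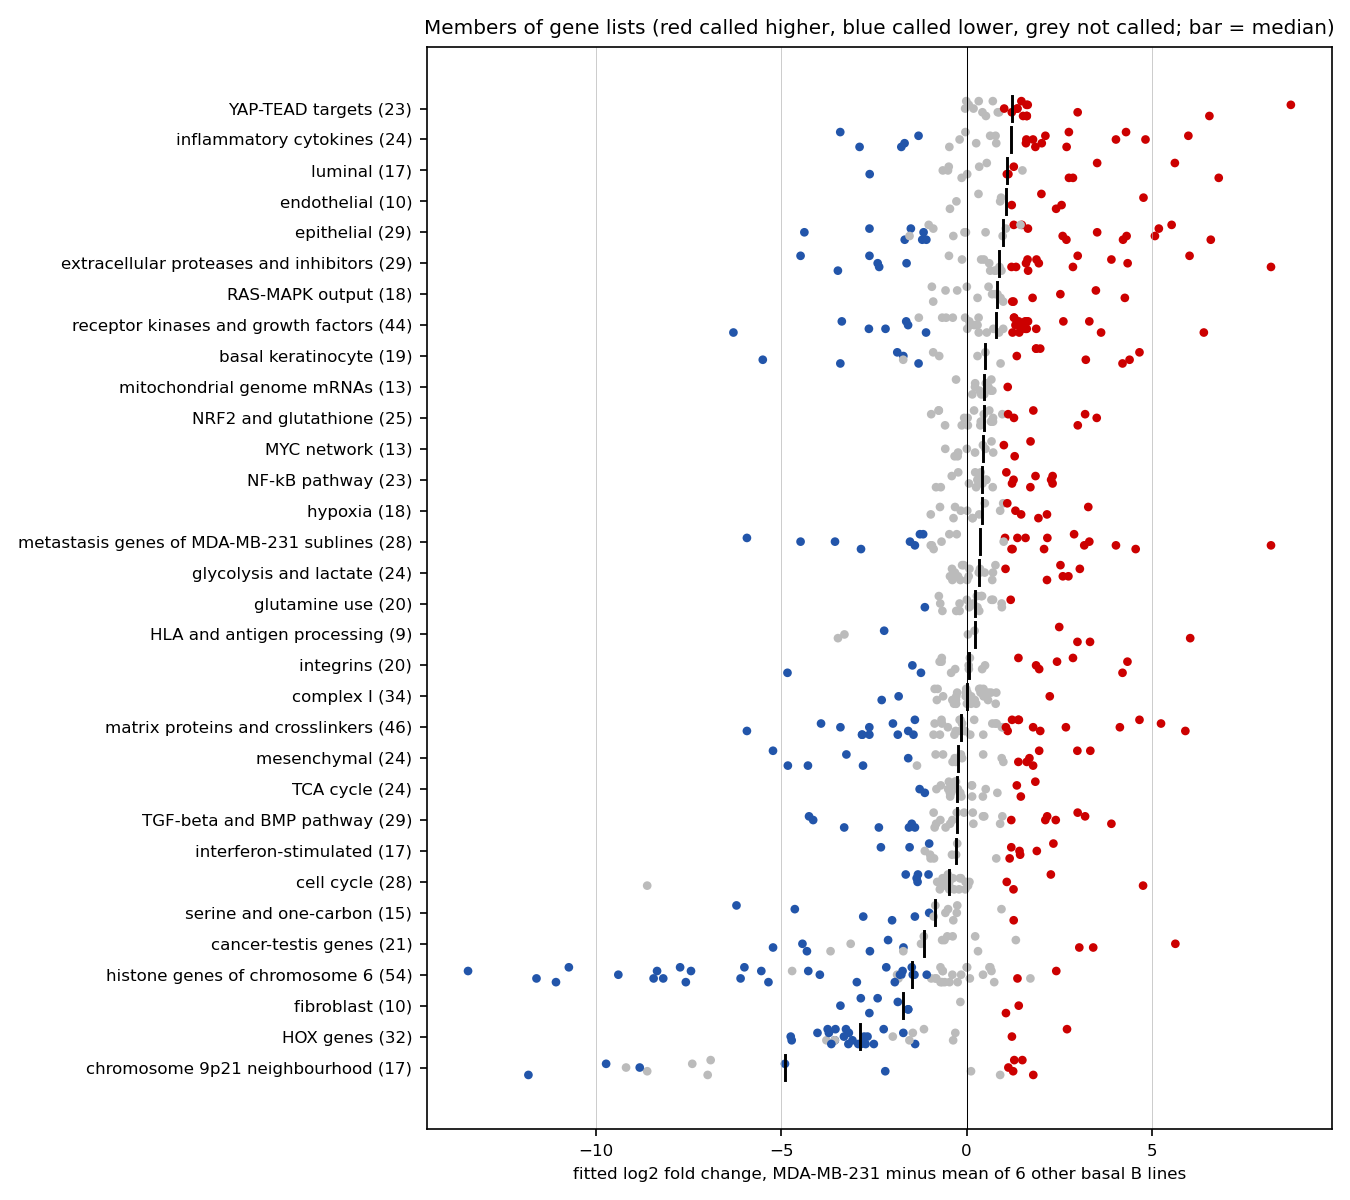
Fitted log2 fold changes of MDA-MB-231 minus the mean of the 6 other basal B lines for the members of 32 gene lists (number tested in parentheses), sorted by median (black bar). Red points were called higher, blue lower and grey not called. The lists of blood markers, cholesterol synthesis, breast stem and progenitor genes, the MAPK cascade itself and the Hippo pathway are not drawn. YAP-TEAD targets have the highest median (1.22), and the HOX genes (-2.89) and the 9p21 list lie at the bottom.

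MYC, the transcription factor, had 146.2, 213 and 240 CPM in MDA-MB-231 and 32.5 to 144.8 CPM in the others, with BT-549 the highest line. All 3 libraries lay above the 18, the lowest of them narrowly. The difference was 1.30 ± 0.13 (edgeR adjusted p = 3.19e-12), with 1.38 within the shared runs and 1.78 within the shared medium, all called. Of the 13 genes of its network 3 were higher and 0 lower (23.1% called, against 22.1% over all genes tested). Besides MYC these were MLXIP (1.004 ± 0.23) and MLXIPL (1.72 ± 0.68), glucose-sensing partners of MLX. MLXIP was at the fold threshold, was not called within the shared medium (0.54), without BT-549 (0.87), without Hs578T (0.83) or without the filter on low counts (0.993), and lost its call when any of several single libraries was left out. MLXIPL was at 0, 0.488 and 1.89 CPM, and its difference was not called without the third library (0.28) or within the shared medium (-0.66). Of the network, 4 genes were higher within the shared runs and 1 within the shared medium. MAX (-0.32), the obligate partner of MYC, and the antagonists MNT (-0.24) and MXD1 (0.23) were not called.

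In metabolism, the serine and one-carbon list stood out by its direction. Of 15 tested, 6 were lower and 1 higher, and the median was -0.84. PHGDH, the first enzyme of serine synthesis, had 1.41, 1.79 and 1.68 CPM against 36.7 to 358 CPM (-6.21 ± 0.29, edgeR adjusted p = 8.28e-23). GLDC, ALDH1L2 and MTHFD2, mitochondrial enzymes of glycine and folate metabolism, also lay below all other libraries. MTHFD2 had 123, 123 and 122 CPM against 185 to 523 CPM. PSAT1, the next enzyme after PHGDH, was lower (-2.01 ± 0.22) with overlap and not called within the shared medium (-0.99), and PSPH, the last, was not called (-0.89). The narrower contrasts had 5 lower and 1 higher within the runs, and 4 and 1 within the medium.

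Respiratory complex I showed little change as a list, with 1 of 34 tested genes higher and 2 lower and a median of 0.02. That is 8.82% called, against 22.1% over all genes tested. The called subunits lay far from the rest. NDUFB9 had 23.0, 34.1 and 32.5 CPM against 68.1 to 248 CPM (-2.29 ± 0.12), and NDUFV2 had 26.8, 30.7 and 32.9 CPM against 2.91 to 10.8 CPM (2.24 ± 0.17). The third, NDUFA7, was at 0.313 CPM and was not called within the shared runs (-0.95). Of 13 mitochondrially encoded mRNAs (7.69% called), MT-ND6 was higher (1.11 ± 0.26). Its call was lost within the shared medium (0.86), with a run term, without HCC1395 (0.76) or HCC38 (0.993), and without the third MDA-MB-231 library (0.83). The tricarboxylic acid cycle had 3 higher and 2 lower of 24 (20.8% called), and glutamine use 1 and 1 of 20 (10% called). Both shares were below the 22.1% over all genes tested.

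Glycolysis and lactate genes were higher in 6 and lower in 0 of 24. That is 25% called, near the 22.1% over all genes tested. Within the shared medium 3 were higher and 2 lower. SLC16A3, the lactate exporter, had 106, 67.8 and 56.6 CPM against 1.72 to 34.8 CPM, and SLC2A1, a glucose transporter, 386, 289 and 277 CPM against 27.0 to 247 CPM. SLC2A1 was not called within the shared runs (0.77). The other 4 were not called within the shared medium. TXNIP, a glucose-responsive inhibitor of uptake, was higher in the main contrast (3.05 ± 0.20), but was 407 CPM against 428 in MDA-MB-157 and 1172 in MDA-MB-436, and -0.80 and not called within the shared medium. SLC2A3 (2.75 in the main contrast and 0.54 within the medium), ALDOC (2.60 and 0.08) and HK2 (1.05 and 0.65) were the others. Of 18 hypoxia genes 6 were higher and 0 lower (33.3% called), with HIF1A at 1176, 1228 and 1353 CPM against 280 to 835 CPM. Within the shared medium, however, 5 hypoxia genes were higher and 4 lower.

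Among 25 NRF2 and glutathione genes, 6 were higher and 0 lower (24% called, against 22.1% over all genes tested). TXNRD1, a selenoprotein reductase, had 6984, 6727 and 5145 CPM against 836 to 4937 CPM. GPX1, another selenoprotein, had 235, 207 and 242 CPM against 0.152 to 162 CPM, and NFE2L3, a relative of NRF2, 345, 261 and 248 CPM against 6.09 to 220 CPM. TXNRD1 (0.99) and GPX1 (0.74) were not called within the shared runs. NQO1 (-0.75), HMOX1 (-0.96) and GCLM (0.20), classical NRF2 targets, were not called. The run-matched contrast had 2 higher and 5 lower, and the medium-matched one 9 and 1.

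Of 28 cell cycle genes 4 were higher and 5 lower (32.1% called, against 22.1% over all genes tested). CCND2, a D-type cyclin, had 22.2, 36.4 and 54.1 CPM against 0 to 12.9 CPM, and CDKN1A, the inhibitor p21, 68.0, 92.3 and 110 CPM against 6.98 to 56.7 CPM. PLK1 (-1.64 ± 0.20), CCNE1 (-1.35 ± 0.15) and CCNE2 (-1.31 ± 0.14) were lower. CCNE1 was not called within the shared runs (-0.87) nor CCNE2 within the shared medium (-0.20). Cholesterol synthesis had 3 higher and 2 lower of 20 (25% called, against 22.1% over all genes tested). SQLE was at 55.1, 65.5 and 59.9 CPM against 82.8 to 422 CPM. Of 9 HLA and antigen-processing genes tested, 4 were higher and 1 lower. CD74, B2M, HLA-B and HLA-C were the higher ones, B2M not within the shared runs (0.20). Within the shared runs 3 of the list were higher and 3 lower, and within the shared medium 4 and 1. Reads of HLA genes map by allele to a single reference and to close copies, so that levels between lines are uncertain. Interferon-stimulated genes had 6 higher and 3 lower of 17, and cancer-testis genes 3 higher and 6 lower of 21, with SPANXB1 (12.7, 13.2 and 23.3 CPM), whose family holds close copies, above all other libraries. Breast stem and progenitor genes had 4 higher and 4 lower of 17, with PROCR, a surface receptor for protein C, above all 18 libraries and NOTCH3 below them.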

How the data were processed

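Total RNA was depleted of ribosomal RNA and sequenced from 15 breast cancer lines, 3 libraries each. The deposited file holds raw read counts per gene, made with Trimmomatic, STAR and featureCounts on GRCh38.p12, per the submitters' processing notes. The annotation release, strand setting and treatment of reads with several matches are each not given in the sources read here. Of 64485 gene identifiers, 58275 (90.4%) were given symbols from GENCODE 29. Genes were filtered with filterByExpr (minimum count 10, minimum total 15) and fitted over all 45 libraries with edgeR 4.0.16 in R 4.3.3 (quasi-likelihood F test, TMM scaling). The contrast was the coefficient of MDA-MB-231 minus the mean of those of the 6 other lines. This is a mean on the log scale, so a fold change can be positive where a single high line lifts the arithmetic mean above MDA-MB-231. A call needs a Benjamini-Hochberg adjusted p under 0.05 and a log2 fold change of 1 or more in size. Every adjusted p is from this fit unless another is named. Levels are TMM-scaled CPM, and those compare samples, not genes. Marker sums and values on summed libraries, among them medians of the 6 lines beside counts, were scaled to raw library totals without TMM. The standard error is the fold change over the square root of F. Bounds for genes at 0 counts use a floor of 3 counts over the summed MDA-MB-231 libraries, and ratios at 1 to 3 counts carry exact 95% Poisson intervals.

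The lines, gene lists and rules were chosen with earlier results of these data known. Named genes were, among protein-coding genes of at least 20 CPM in the higher group, the 12 in each direction with the widest gap to the nearest other line, 3 long noncoding genes each way, MYC, up to 4 called members per list by absolute fold change, and a few defining genes. Some genes that met the rule are not reported here. No library was left out of the main result. Alternatives were DESeq2 1.42.0 (test and size factors), no filter, a fit of the 21 basal B libraries, glmTreat, 1 sum per line, a replicate block, run and medium subsets, and leaving out each line and library. The test was run on simulated counts with MDA-MB-231 set at the mean of the 6 lines and spread within lines only. It recovered 83% of log2 changes of 2 and 88% of those of 3, and called 0.0147% of unchanged genes. Since MDA-MB-231 was given no spread between lines, the simulation does not address that error.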

Additional observations from a re-analysis of the deposited data

How the results depend on the processing

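With 1 sum per line as the unit, 8 genes were higher and 3 lower, and MYC was 1.16 (edgeR adjusted p = 0.9998); of 160 named genes, 145 lost their call and 4 changed sign (TIMP3 -0.29, OASL -0.38, OAS2 -0.74 and EPCAM -3.05). That fit takes the mean of the other lines on the count scale, so 1 high line weighs more in it. Testing against the fold threshold itself (glmTreat) left 1312 higher and 876 lower. With a term for the run among the lines of runs 1 and 2, TIMP3 (-0.47) and EPCAM (-1.18) changed sign. Within the shared medium NF2 (0.075), TNFAIP2 (-0.69), GLUL (-0.14), TXNIP (-0.80) and MLXIPL (-0.66) did, and without HCC38, CDH1 did (0.15). The cause was not tested.

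Leaving out 1 library at a time gave 2347 to 2744 genes higher, 1766 to 2043 lower, 813 to 1043 above and 456 to 712 below all other libraries, and 1.17 to 1.51 for MYC. Leaving out each MDA-MB-231 library, and no other, gave 2267 to 2309 higher and 2143 to 2284 lower within the shared runs, and 2516 to 2636 and 2401 to 2476 within the shared medium. The block for replicate numbers gave 2496 higher, 2067 lower and 1.29 for MYC, and changed the call of none of the 160 named genes. Same-numbered deviations of MDA-MB-231 and of the mean of the other lines had correlations of 0.0616, -0.0228 and -0.16. In BT-549, HCC1395, MDA-MB-157 and MDA-MB-436 the replicate number followed the sequencing run. These correlations cannot show a pairing among those lines, since each involves MDA-MB-231. DESeq2's test gave 2516 and 1947, its size factors in edgeR 2555 and 1948, and no filter 3177 and 2014.

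The limits are that a line is the unit of interest and only 6 stand for the class, that run and medium cannot be told apart from line where no other line shared both with MDA-MB-231, and that low genes rest on few reads.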
